A study of Oryza sativa with 8 samples.

Results

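The 6 loci described here encode the red and blue light receptors of rice that are named as phytochromes and cryptochromes: PHYA, PHYB and PHYC on chromosome 3, CRY1a and CRY2 on chromosome 2, and CRY1b on chromosome 4, each chromosome read from the locus ID. They were chosen by locus ID (PHYA Os03g0719800, PHYB Os03g0309200, PHYC Os03g0752100, CRY1a Os02g0573200, CRY1b Os04g0452100 and CRY2 Os02g0625000), and all 6 were among the 36850 rows of the count table and the 20690 genes tested. At early heading, leaf RNA of rice (Oryza sativa) grown in the field was sequenced from 4 WT libraries and from 4 libraries of mEmBP-OE-4. The line overexpresses mEmBP-1a, a maize bZIP factor of the class that binds G-box elements. The leaf was the second from the top, cut at about 10:00 in the morning in both groups. A single line stands for the overexpression, and the promoter that drives the transgene is not given in the sources used here. The labels do not say whether the replicates came from separate plants, so each p-value sets the groups against library-to-library spread alone, part of which may be technical.

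Phytochromes carry a bilin chromophore and switch between a form that absorbs red light and an active form that absorbs far-red light. Cryptochromes bind a flavin and respond to blue light. As worked out mainly in Arabidopsis, both classes act in the nucleus on the COP1 ubiquitin ligase complex, which marks HY5-type bZIP factors for breakdown, and phytochromes also remove the PIF-type bHLH factors. In rice, phytochromes set de-etiolation, leaf development and the photoperiodic control of heading.

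Libraries held 35627524 to 50800180 counts, and the 6 loci together held 15739 to 28344 of them. Of 8 loci listed as leaf markers all had counts, with a summed level of 73520 to 84514 CPM (counts scaled to a fixed library size) on library totals in WT and 75965 to 97627 CPM in mEmBP-OE-4. Of these 8, 7 were called higher in the line and none lower, with log2 fold changes of 0.77 to 2.63, and 5 were also called higher on library totals. Of all tested genes 20.1% were called higher under the main scaling given below (TMM) and 8.47% on library totals. Of 6 panicle marker loci 2 were at 0 in every library, with sums of 6.18 to 9.17 CPM for WT and 4.67 to 7.40 CPM in mEmBP-OE-4. Of the 2 that were tested, none was called under TMM. On library totals 1 was called lower, as were 43.1% of all tested genes. Of 2 root marker loci 1 was at 0 in every library, with sums of 10.2 to 16.7 CPM for WT and 18.2 to 25.7 CPM in mEmBP-OE-4. The other was called higher under TMM, at a log2 fold change of 1.31, and also on library totals. The part of other tissues in the results below was not tested.

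Levels are given in CPM on library sizes scaled by TMM, which centres the bulk of genes on no change. TMM factors were 1.18 ± 0.0726 in WT and 0.853 ± 0.125 in mEmBP-OE-4 (SD, n = 4). On library totals alone all tested genes had a median log2 fold change of -0.47, so the fold change of each of the 6 genes is also given on that scale and relative to that median. The levels are not divided by transcript length and are compared between groups within a gene, not between genes.

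PHYA and CRY1a were lower in mEmBP-OE-4 than in WT, by 1.58-fold and 1.47-fold. PHYB, PHYC, CRY1b and CRY2 did not pass the test. With the quasi-likelihood test of edgeR, adjusted by Benjamini-Hochberg over all tested genes, 2 of the 6 loci were lower and 0 were higher (at an unadjusted p under 0.05, and by DESeq2 and limma-voom, these were also 2 and 0). Of all tested genes 19.1% were called lower and 20.1% higher, 39.2% in either direction. The median log2 fold change of the 6 was 0.03, against 0.00 for all tested genes. The share of calls among the 6 was thus not above that of all tested genes. Only 1 of the 6 was lower without WT replicate 2, 3 or 4 or without mEmBP-OE-4 replicate 1, 2 or 4, and 1 was higher without mEmBP-OE-4 replicate 1 or 3. Without both replicate 1 libraries 1 was lower and 1 higher.

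**Figure D1:**
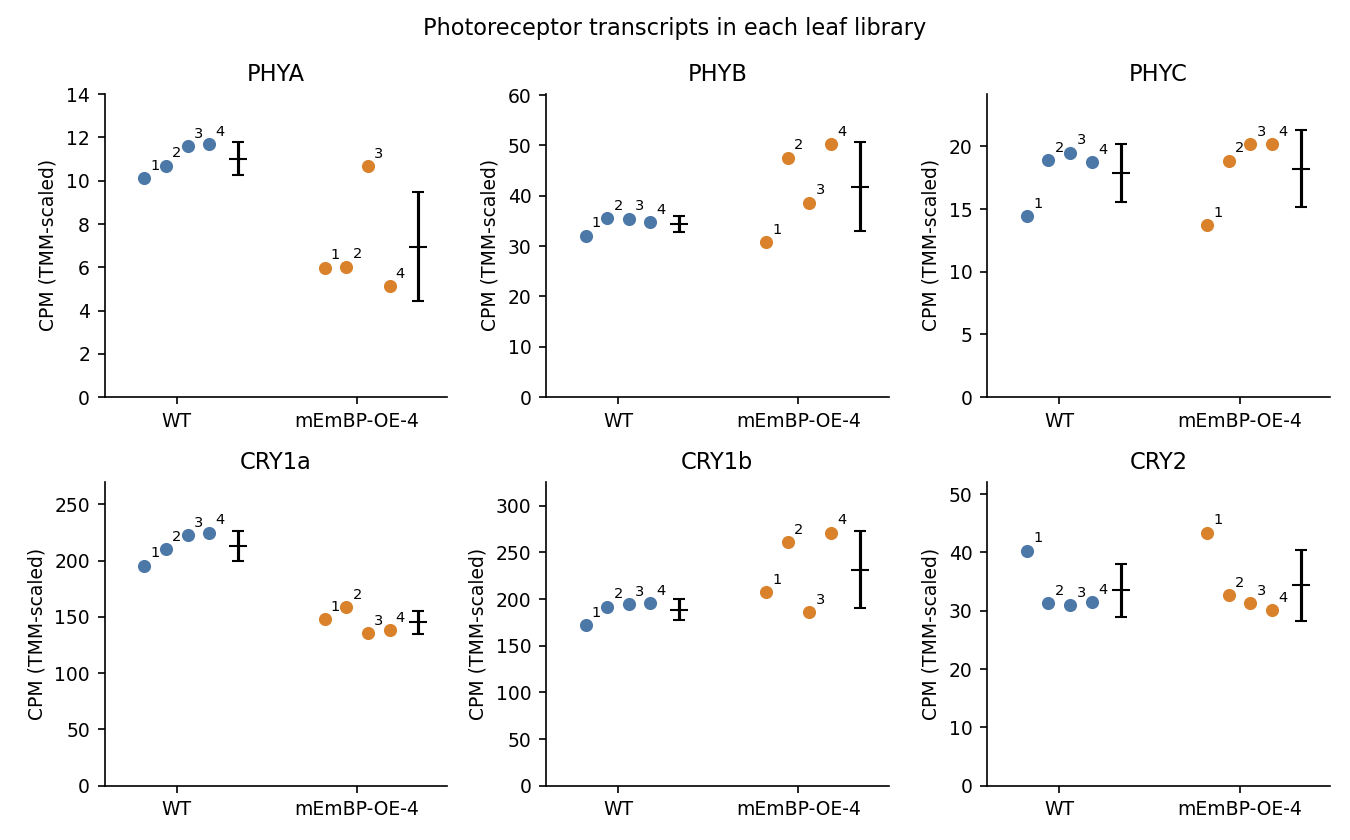
Level of each photoreceptor transcript in each library, in CPM on TMM-scaled library sizes, with points numbered by replicate and bars for mean and SD (n = 4). CRY1a alone separates the groups, at 196 to 225 CPM for WT and 136 to 159 CPM in mEmBP-OE-4, and for PHYA mEmBP-OE-4 replicate 3 lies within the WT range.

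PHYA encodes the phytochrome that is light-labile as a protein and that senses very low light and far-red light. In WT it had 10.1, 10.7, 11.6 and 11.7 CPM in replicates 1 to 4. In mEmBP-OE-4 it had 5.98, 6.03, 10.7 and 5.13 CPM. Replicate 3 of mEmBP-OE-4 lay inside the WT range and the other 3 libraries of the line lay well below it. The log2 fold change was -0.66 (SE 0.22, 95% interval -1.15 to -0.17), the adjusted p was 0.0378 (edgeR), and PHYA was lower in 4 of 4 same-numbered pairs. Under TMM PHYB, CRY1b and CRY2 were higher in 3 of 4 pairs and PHYC in 2 of 4. On library totals each photoreceptor gene was lower in 4 of 4 pairs, and the share of all tested genes with 4 of 4 is not given here. The call of PHYA depended on which libraries were used. Without mEmBP-OE-4 replicate 3 the log2 fold change was -0.95 (adjusted p = 0.00123), whereas the call was lost without WT replicate 2, 3 or 4 or without mEmBP-OE-4 replicate 1, 2 or 4 (adjusted p = 0.0639 to 0.0995). It was also lost without both replicate 1 libraries (adjusted p = 0.0838). On library totals the log2 fold change was -1.12 (adjusted p = 0.00599), or -0.65 relative to the median of all genes.

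The counts behind PHYA were 457 to 617 in WT and 181 to 434 in mEmBP-OE-4. Counting error was therefore at most 7.43% of a value, while the coefficient of variation between mEmBP-OE-4 libraries was 36.2%, against 6.85% in WT. The median over all tested genes was 21.3% in mEmBP-OE-4 and 16.6% in WT. The high value of the line rests on replicate 3, without which it was 8.89%.

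PHYB encodes the light-stable phytochrome that dominates responses to continued red light and to shade. Its WT libraries had 32.0, 35.6, 35.4 and 34.7 CPM. Its mEmBP-OE-4 libraries had 30.8, 47.6, 38.6 and 50.2 CPM. Replicate 1 of the line lay just below every WT library and the other 3 lay above them all. The log2 fold change of 0.28 (SE 0.15, 95% interval -0.05 to 0.61) did not pass the test (adjusted p = 0.163, edgeR). Without mEmBP-OE-4 replicate 1 it was 0.39 and passed (adjusted p = 0.0235), as it did without both replicate 1 libraries. On library totals it was -0.22 (adjusted p = 0.0949), or 0.25 relative to the median of all genes, so the sign of the PHYB value depends on the scaling.

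PHYC encodes a phytochrome whose protein is stable in the presence of PHYB, with which it pairs. It had 14.5, 18.9, 19.5 and 18.7 CPM for WT and 13.7, 18.9, 20.2 and 20.2 CPM in mEmBP-OE-4. Replicate 1 was the lowest library of both groups, and the other 6 libraries overlapped. The log2 fold change of 0.03 had a 95% interval of -0.31 to 0.37 (adjusted p = 0.904, edgeR). On library totals PHYC was called lower, at -0.46 (adjusted p = 0.0152), which lies at 0.01 relative to the median of all genes.

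CRY1a was lower in mEmBP-OE-4, with the lowest adjusted p of the 6 loci. CRY1a and CRY1b are the rice cryptochromes that act in blue-light control of seedling growth. CRY1a had 196, 210, 222 and 225 CPM in WT. It had 148, 159, 136 and 138 CPM in mEmBP-OE-4. Every library of the line lay below every WT library. This was 1 of the 6 loci, where the groups did not overlap in 38.5% of all tested genes, 19.7% of all with the line lower. The log2 fold change was -0.56 (SE 0.10, 95% interval -0.78 to -0.33) and the adjusted p was 0.00260 (edgeR). CRY1a was lower in 4 of 4 same-numbered pairs, as any pairing gives where the groups do not overlap. Leaving out each library in turn gave -0.61 to -0.52, with adjusted p = 0.00334 to 0.0122 (edgeR). On library totals it was -1.03, or -0.56 relative to the median of all genes.

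CRY1b had 172, 192, 195 and 196 CPM in WT. In mEmBP-OE-4 it had 207, 261, 186 and 271 CPM. Replicate 3 of the line fell inside the WT range and the other 3 lay above it. The log2 fold change of 0.30 (SE 0.14, 95% interval -0.02 to 0.61) did not pass the test (adjusted p = 0.120, edgeR). It passed without mEmBP-OE-4 replicate 3, at 0.39 (adjusted p = 0.0415). On library totals it was -0.20 (adjusted p = 0.129), or 0.28 relative to the median of all genes, so for CRY1b too the sign depends on the scaling.

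CRY2, in Arabidopsis the blue-light-labile cryptochrome with a part in flowering time, had 40.3, 31.2, 31.0 and 31.5 CPM in WT. In mEmBP-OE-4 it had 43.4, 32.6, 31.3 and 30.0 CPM. Replicate 1 was the highest library in both groups, and the groups overlapped. The log2 fold change was 0.03 (95% interval -0.29 to 0.36, adjusted p = 0.867, edgeR), and -0.42 on library totals (adjusted p = 0.132), or 0.05 relative to the median of all genes.

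**Figure D2:**
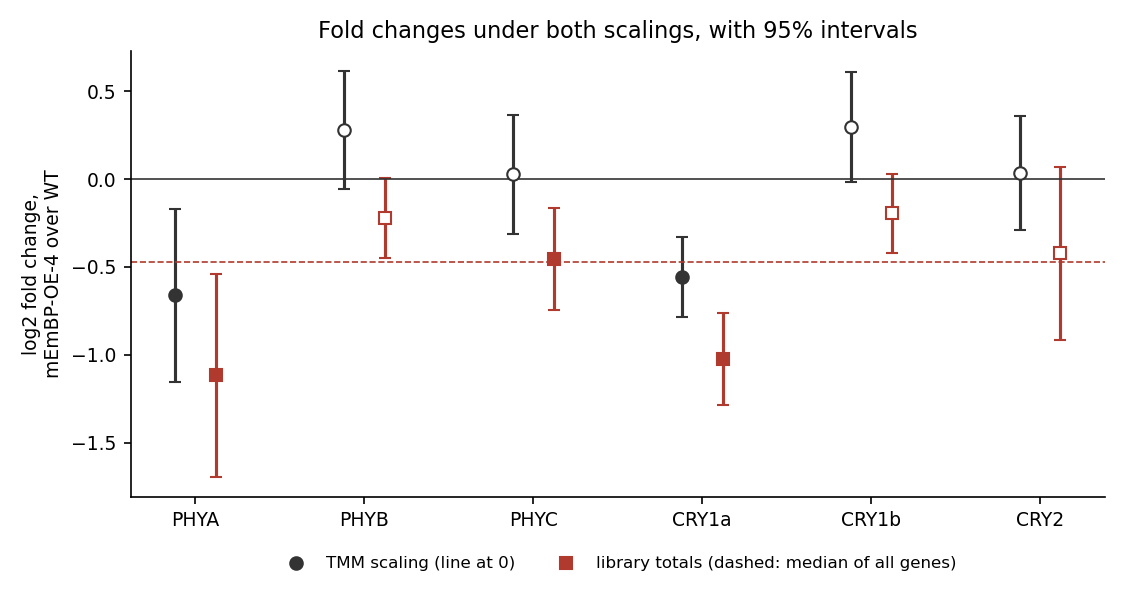
Log2 fold change of mEmBP-OE-4 over WT for each gene with 95% intervals, under TMM scaling (circles) and library totals (squares), filled where the adjusted p is under 0.05. PHYA and CRY1a lie below 0 on both scales, and the dashed line is the median of all genes on library totals, -0.47.

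On library totals 3 of the 6 loci were called lower (PHYA, PHYC and CRY1a) and 0 higher by edgeR, since all 6 log2 fold changes were below 0 there, where 43.1% of all tested genes were called lower, 8.47% higher and 51.5% in either direction. The groups did not overlap for 5 of the 6 on that scale, all but CRY2, and for 48.0% of all tested genes, 40.7% with the line lower. Because the RNA came from whole leaf tissue, fewer cells of a type and less RNA per cell cannot be told apart.

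Ratios between genes of a family within a library do not depend on the scaling. How often ratios of other gene pairs separate the groups was not examined, and 38.5% of single genes did so under TMM scaling. CRY1a counts were 1.14, 1.10, 1.14 and 1.15 times those of CRY1b in WT replicates 1 to 4. In mEmBP-OE-4 they were 0.713, 0.608, 0.729 and 0.509 times those of CRY1b. In every WT library CRY1a thus had more counts than CRY1b, and in every library of the line it had fewer. The log2 ratio was 0.18 ± 0.03 in WT and -0.66 ± 0.24 in mEmBP-OE-4 (SD, n = 4), a difference of -0.84 (SE 0.12). The two-sided exact permutation p was 0.0286, the smallest that 4 against 4 libraries allow, and 0.0571 after Benjamini-Hochberg adjustment over the 6 ratios. CRY1a took 49.0% ± 0.880 of cryptochrome counts in WT and 35.5% ± 3.05 in mEmBP-OE-4, and CRY1b took 43.3% ± 0.853 and 56.0% ± 4.56 (SD, n = 4). How reads shared by the CRY1 paralogs were assigned is not given in the sources used here.

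**Figure D3:**
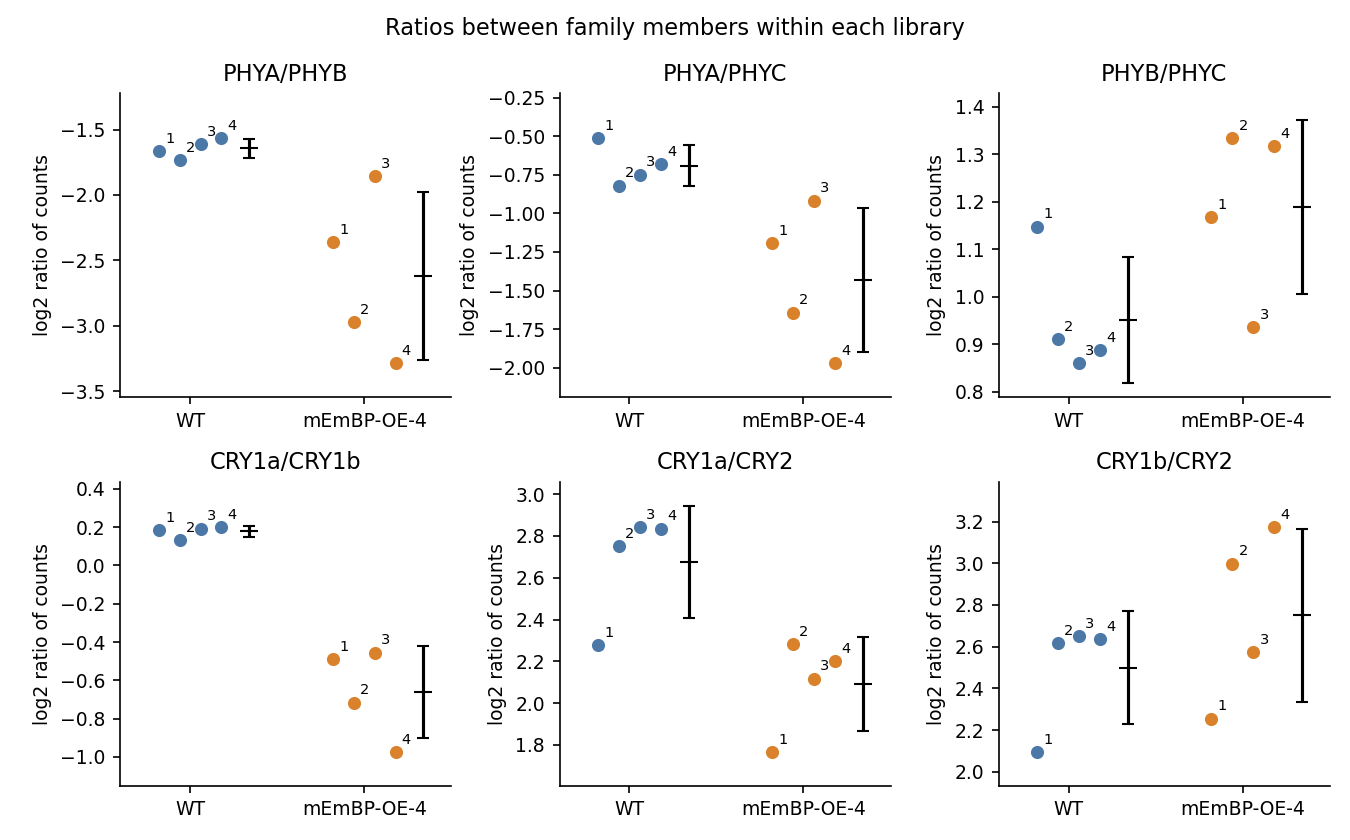
Log2 ratio of counts between genes of each family within each library, numbered by replicate, with mean and SD (n = 4). The groups are apart for CRY1a/CRY1b, PHYA/PHYB and PHYA/PHYC.

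Among phytochromes, the ratios of PHYA to both others did not overlap between the groups. PHYA counts were 0.316, 0.301, 0.328 and 0.337 times those of PHYB in WT. In mEmBP-OE-4 they were 0.195, 0.127, 0.277 and 0.102 times those of PHYB. Every ratio of the line lay below every WT ratio, and replicate 3 of the line again lay nearest to WT. As for CRY1a/CRY1b, the share of other gene pairs with such a separation was not examined. The log2 PHYA/PHYB ratio differed by -0.98 (SE 0.32, exact permutation p = 0.0286, adjusted 0.0571) and the PHYA/PHYC ratio by -0.74 (SE 0.24, exact permutation p = 0.0286, adjusted 0.0571). PHYB/PHYC differed by 0.24 (SE 0.11), with an exact permutation p of 0.0571 and an adjusted value of 0.0686. In shares of phytochrome counts, PHYA had 17.4% ± 0.705 in WT and 10.6% ± 3.83 in mEmBP-OE-4, PHYB 54.4% ± 1.58 and 62.2% ± 5.02, and PHYC 28.2% ± 1.76 and 27.2% ± 1.29 (SD, n = 4).

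Of the remaining cryptochrome ratios, CRY1a/CRY2 differed by -0.59 (SE 0.18, exact permutation p = 0.0571, adjusted 0.0686) and CRY1b/CRY2 by 0.25 (SE 0.25, exact permutation p = 0.371, adjusted 0.371). None of the 6 ratios passed after adjustment. Of them, 5 had the same direction in 4 of 4 same-numbered pairs, but the ratios share genes and are not separate results. For CRY1a/CRY1b, PHYA/PHYB and PHYA/PHYC any pairing gives 4 of 4, since the groups did not overlap. With the libraries paired by number, the exact sign-flip test cannot pass whatever the values, since 4 pairs allow no p below 0.125, and each of those 5 ratios was at that limit.

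PHYC and CRY2 stood apart in the replicate 1 libraries of both groups. PHYC had 14.5 and 13.7 CPM in the replicate 1 libraries of WT and mEmBP-OE-4, and 18.7 to 20.2 CPM in the 6 others. CRY2 had 40.3 and 43.4 CPM in those replicate 1 libraries and 30.0 to 32.6 CPM in the 6 others. Free of scaling, CRY2 counts were 2.79 times PHYC counts in WT replicate 1 and 3.17 times in mEmBP-OE-4 replicate 1. In the remaining WT libraries the ratio was 1.65, 1.59 and 1.68, and in the remaining libraries of the line it was 1.73, 1.55 and 1.49. Over the 8 libraries, with each group's mean removed, log2 CPM of PHYC and CRY2 had r = -0.996, a description in which the replicate 1 libraries lie far from the rest and the values share library, depth and scaling factor. With the replicate number as a block the standard error fell from 0.15 to 0.09 for PHYC and from 0.14 to 0.08 for CRY2, and neither passed the test (adjusted p = 0.877 and 0.795, edgeR). On library totals with the block, an alternative chosen after the data were seen, CRY2 too was called lower (-0.45, adjusted p = 0.00715), which made 4 of the 6. The labels do not say what the replicate 1 libraries shared.

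**Figure D4:**
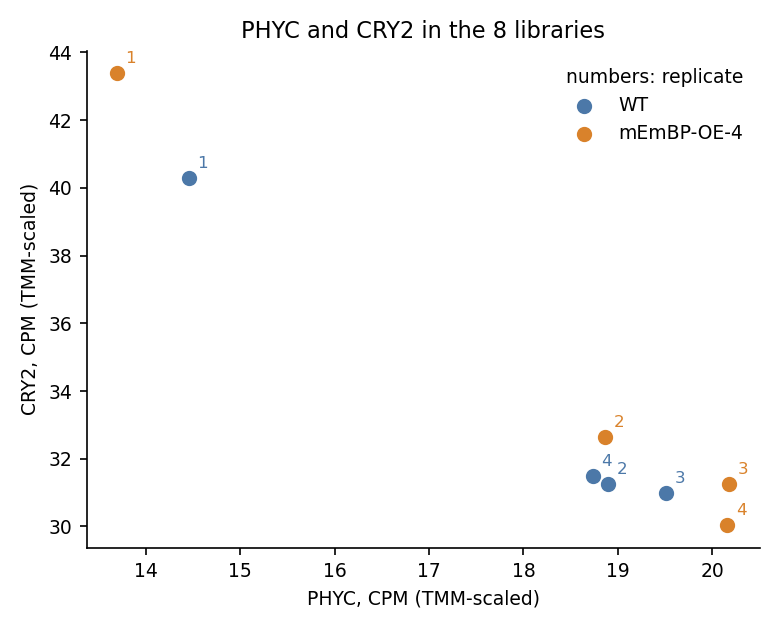
PHYC against CRY2 in CPM on TMM-scaled library sizes, 1 point per library numbered by replicate. The replicate 1 libraries of WT and mEmBP-OE-4 stand together at low PHYC and high CRY2, away from the other 6, which lie at 18.7 to 20.2 CPM of PHYC and 30.0 to 32.6 CPM of CRY2.

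Among other loci of the light pathway, 13 were higher and 2 lower under TMM scaling, against 20.1% and 19.1% of all tested genes. On library totals 3 were higher and 7 lower, against 8.47% and 43.1% of all tested genes. These lists were recalled by locus ID, and neither the files nor the reference tie an ID to a name, so they are given as counts. Because the lists were chosen with earlier results of these data known, their shares, here and below, are no independent comparison with all genes. Of 32 loci 30 were tested and 15 called (edgeR, adjusted p), 50% against 39.2% of all tested genes. The median log2 fold change was 0.44, and -0.04 on library totals, above the -0.47 of all genes. The number higher was 8 when WT replicate 3, WT replicate 4 or mEmBP-OE-4 replicate 2 was left out. The 2 untested loci had a count of 0 in every library. Both loci for synthesis of the phytochrome chromophore were tested, of which 1 was higher, and the values were 0.32 and 0.54. On library totals neither was called, at -0.13 and 0.05. The enzymes meant are heme oxygenase and phytochromobilin synthase, which make the bilin from heme.

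Of 9 loci listed for other photoreceptors (phototropins, the ZTL and FKF1 class, UV-B receptors and a CRY-DASH protein), 8 were tested, 2 were higher and 2 lower, over a range of -1.27 to 0.91. Of all tested genes 20.1% were higher and 19.1% lower. On library totals 5 of the 8 were lower and none higher, where 43.1% of all tested genes were lower and 8.47% higher. Os06g0661800 on this list had 14.3 ± 2.27 CPM for WT and 26.9 ± 3.26 CPM in mEmBP-OE-4 (SD, n = 4), 0.91 higher on the log2 scale (SE 0.14, adjusted p = 0.00114, edgeR), and it was not called on library totals. The 2 loci called lower under TMM scaling were also called lower on library totals. Under TMM their log2 fold changes were -1.20 (SE 0.33, adjusted p = 0.0188, edgeR) and -1.27 (SE 0.25, adjusted p = 0.00403, edgeR). Their mean levels were 12.04 ± 4.82 and 0.935 ± 0.109 CPM in WT, and 5.25 ± 2.29 and 0.387 ± 0.0363 CPM in the line (SD, n = 4). Of 3 loci for the COP1, DET1 and SPA repressors of light signalling, 1 was higher and none lower (median 0.33). On library totals none of the 3 was called (median -0.17).

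Of 9 HY5-like and PIF-like loci, the transcription factors downstream of the receptors, 5 were higher and none lower, where 20.1% of all tested genes were higher and 19.1% lower, with a median of 0.64 and a range of -0.25 to 1.25. Os02g0203000 on this list had 12.8 ± 1.74 CPM for WT and 26.6 ± 2.72 CPM in mEmBP-OE-4 (SD, n = 4), 1.05 higher on the log2 scale (SE 0.13, adjusted p = 3.01e-04, edgeR), and it was also called higher on library totals. Of 9 loci for photoperiod sensing and heading, 8 were tested, 4 were higher and none lower, with a median of 0.66. On library totals 2 of the HY5-like and PIF-like loci were higher and none lower, while 1 photoperiod locus was higher and 2 lower, where 8.47% of all tested genes were higher and 43.1% lower.

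**Figure D5:**
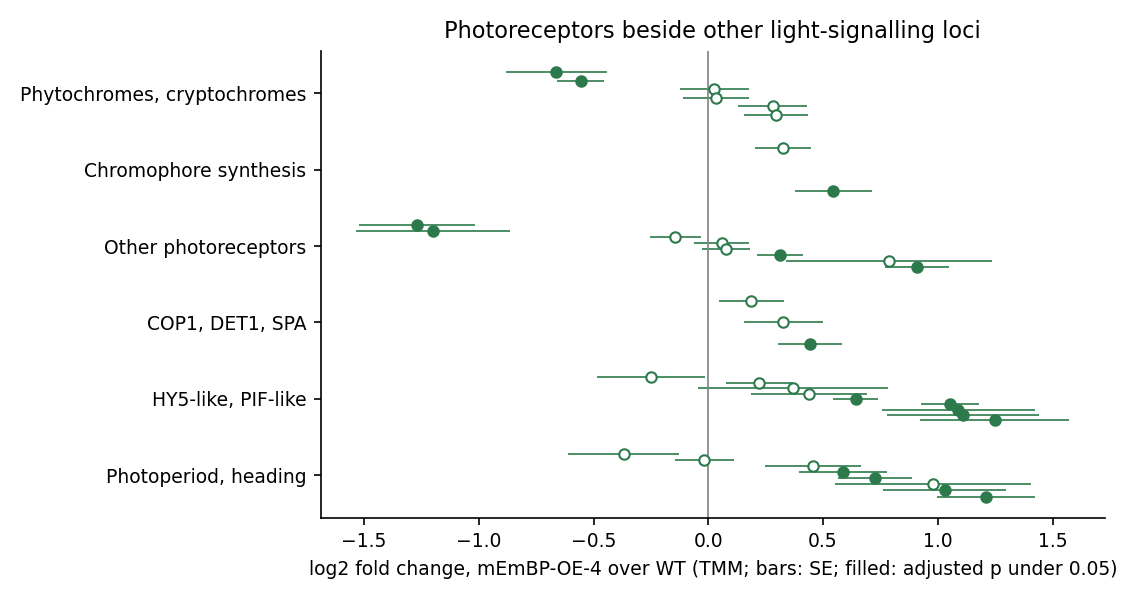
Log2 fold change of mEmBP-OE-4 over WT under TMM scaling for the 6 photoreceptor genes and the tested loci of 5 recalled lists, with SE bars, filled where the adjusted p is under 0.05. PHYA and CRY1a are the filled points left of 0 in the top row, and 13 of the 15 filled points below it lie right of 0.

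The tested genes most like a photoreceptor in log2 CPM over the 8 libraries were found by Pearson's r, as a description in which the difference between groups is part of the likeness. For CRY1a the nearest was Os03g0444900 (r = 0.996), which went from 5.50 to 4.08 CPM between group means. For PHYA it was Os11g0217300 (r = 0.981), which went from 12.4 to 9.03 CPM. For CRY1b it was Os05g0164100 (r = 0.995, from 284 to 354 CPM), which like CRY1b did not pass the test. For PHYB it was Os03g0820700 (r = 0.984, from 11.5 to 12.4 CPM), which did not pass either. With each group's mean removed, r with the gene named was 0.965 for CRY1a, 0.951 for PHYA, 0.993 for CRY1b and 0.989 for PHYB. Genes with r over 0.95 before that step numbered 239 for CRY1a, 65 for PHYA, 100 for CRY1b, 70 for PHYB, 36 for PHYC and 22 for CRY2. The number for other tested genes is not given here.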

How the data were processed

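The authors deposited raw read counts per gene, 1 column for each library. Tools named in the submitters' processing notes, in no given role or order, are STAR 2.5.3a, Trim Galore, FastQC and DESeq2, and the build is IRGSP-1.0. The sources used here give no counting tool, strand setting or annotation release, so reads from overlapping, antisense or paralogous genes carry an unknown error. The reference gene table matched 1 of 36850 row IDs and none of the 6 members. Their names come from the rule that chose them, and no gene length, coordinate or sequence was used.

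Members and lists were chosen with earlier results of these data known, and list IDs were recalled from memory. Named genes were the members, the nearest gene of the members with the 2 largest rises and the 2 largest falls, and at most 2 called list loci. The 2 list loci named had the lowest p of their own lists (edgeR). By p over all lists another HY5-like or PIF-like locus came between them (log2 fold change 0.64, adjusted p = 0.00112, edgeR). The list loci called lower are not named.

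Genes passing filterByExpr (minimum count 10, minimum total 15) were scaled by TMM and compared by the quasi-likelihood F test in edgeR 4.0.16 (R 4.3.3), with a threshold of 0.05 on Benjamini-Hochberg adjusted p. Standard errors divide the size of a log2 fold change by the root of F, and 95% intervals use the moderated degrees of freedom. Log2 CPM used a prior count of 2, and log2 ratios used counts plus 0.5 with an exact permutation test over libraries. Alternatives were DESeq2 1.42.0, limma-voom (limma 3.58.1), other scalings and filters, the replicate block and left-out libraries. On counts simulated for 20690 genes the test found 1.41% of 71 genes with a 1.5-fold change, 33.3% of 72 with a 2-fold change and 78.9% of 57 with a 4-fold change, and called 5 of 20174 unchanged ones. These rates come from far fewer changed genes than were called in the data, where the adjusted threshold is met at a larger unadjusted p. They are therefore lower than the rates for the same folds in the data would be.

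Between replicates of a group, chi-square was 6.43 to 118 per degree of freedom, well above sampling noise. Each library was counted as a sample, though this excess cannot tell separate plants from separate preparations of the same RNA. With group means removed, libraries of the same number correlated at 0.641, 0.347, 0.189 and 0.104, which was taken as pairing. The main calls come from the fit without it. With the replicate block 10200 of all tested genes were called against 8109, and PHYA had an adjusted p of 0.0102 (edgeR). The labels do not say what a number shares, and WT replicate 2 correlated more with another number (0.472).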

Additional observations from a re-analysis of the deposited data

Results flagged for a closer look

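Of 32 groups of 4 values, 7 held a library far from the other 3 by Dixon's criterion, where chance gives about 1 in 20 groups. In WT replicate 1, PHYC had 14.5 CPM against 18.7 to 19.5 in the other WT libraries, CRY1b had 172 CPM against 192 to 196, and CRY2 had 40.3 CPM against 31.0 to 31.5. The same library had a log2 CRY1a/CRY2 ratio of 2.28 against 2.75 to 2.84, a log2 CRY1b/CRY2 ratio of 2.09 against 2.62 to 2.65, and 25883 genes detected against 24978 to 25102. In mEmBP-OE-4 replicate 3, PHYA had 10.7 CPM against 5.13 to 6.03 in the other libraries of the line. The 7 are not independent, since 6 of them come from WT replicate 1.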

How the results depend on the processing

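Of 332 values under alternatives, 277 kept their direction and side of the threshold, or stayed within 1.5 times for counts. These 277 include the ratios, which could not pass with a library left out or by the sign-flip test, whatever the values. Ratios taken as differences of fitted log2 fold changes had no test. For such values only the direction could change, so the 277 overstate how well the calls held. CRY1a was called lower under all of them. PHYA was called lower under each tool, scaling and filter and with the replicate block. It was not called under 6 of 8 single left-out libraries (log2 fold change -0.95 to -0.55 over the 8) and without both replicate 1 libraries (-0.65). Without both replicate 1 libraries PHYB was called higher (0.35), CRY2 was at -0.015, and 1 gene was called higher and 1 lower. Over single left-out libraries PHYB ranged from 0.17 to 0.39, CRY1b from 0.20 to 0.39, PHYC from -0.068 to 0.13 and CRY2 from -0.11 to 0.13. The count called lower ranged from 1 to 2 and the count higher from 0 to 1. On library totals alone PHYB was at -0.22, PHYC at -0.46, CRY1b at -0.20 and CRY2 at -0.42. With the replicate block added after the data were seen these were -0.22, -0.46, -0.20 and -0.45, and 4 genes were called lower. With upper-quartile factors PHYC was at -0.011. The replicate block on TMM scaling changed no call among the 6 genes (PHYA -0.72, PHYB 0.26, PHYC 0.02, CRY1a -0.56, CRY1b 0.28, CRY2 0.03). It called 19 list loci against 15, and left-out libraries gave 10 to 15. Over all genes, 5220 calls against 8109 were made where 4 libraries had to reach 5 CPM. That filter removes genes before the test, so these counts are over different sets of genes. The cause of the other changes was not tested. The 6 ratios kept their direction under every alternative run. Depth limits the genes of low count, as counting error was 4.03% to 4.68% of the PHYA values in WT, where the coefficient of variation was 6.85%.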
